A study of Rattus norvegicus with 12 samples.

Results

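The respiratory chain of the inner mitochondrial membrane was examined in kidneys of rats with L-NAME nephropathy, complex by complex. Genes were taken by symbol, as those beginning with Nduf, Uqcr, Atp5, Cox4, Cox5, Cox6, Cox7 or Cox8 and the 4 genes Sdha, Sdhb, Sdhc and Sdhd, each with the probeset of highest mean level among those that carry a single gene symbol. The rule took 100 of the 18166 genes measured. They were placed in complex I (32 subunits and 8 assembly factors), complex II (4), complex III (7), complex IV (18) and complex V (14). The remaining 17 symbols belong to copies and pseudogenes of these genes and are in none of the complexes. Counts over the 100 genes include these 17. Ndufa4 and Ndufa4l2 were counted with complex IV, where the protein of Ndufa4 is now placed. Another 8 probesets that name a member together with a further gene were not used.

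The kidneys came from male Sprague-Dawley rats, 3 in each group, and RNA from a piece of kidney of each animal was hybridized on its own Affymetrix array. Rats of the W0, W1 and W5 groups received L-NAME, an inhibitor of nitric oxide synthases that causes hypertension and glomerulosclerosis, at 15 mg/kg per day with 6 g/L NaCl in the drinking water until urinary protein exceeded 1 g/mmol of creatinine. W0 kidneys were taken at that peak of damage, and W1 and W5 kidneys 1 and 5 weeks after L-NAME was withdrawn. CTL rats of the same age had no L-NAME, and the sources used here do not say whether they had the added NaCl. The paper gives a range of many weeks for the time until L-NAME was removed. The labels do not give the length of exposure of each rat. Levels are log2 values normalized by RMA, which scales the arrays to one another, and a difference of 1 is a doubling.

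Complex I takes electrons from NADH and complex II, which is also succinate dehydrogenase of the citrate cycle, takes them from succinate. Both hand them to coenzyme Q, from where they pass through complex III, cytochrome c and complex IV to oxygen, and complex V (ATP synthase) makes ATP with the proton gradient built by complexes I, III and IV. The tubules of the kidney, above all the proximal tubule and the thick ascending limb, are rich in mitochondria because they spend ATP on sodium reabsorption. Most subunits are encoded in the nucleus, and a few core subunits of complexes I, III, IV and V in mitochondrial DNA.

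Many nuclear genes of the chain have sites for nuclear respiratory factor 1 (NRF1) and for ETS factors near their start. Promoters, taken as 300 bases that run from before to just after the start, were found for 81 of the 100 genes in the RefSeq annotation of GRCr8. An NRF1 motif (GCGC, any base, then TGCGC, on either strand) was present in 14 of the 81 promoters (17.3%), against 4.3% of all 33469 promoters. It was found in 7 of 30 complex I subunits, 2 of 7 assembly factors, 1 of 4 complex II genes, 1 of 5 complex III genes, 3 of 13 complex V genes and 0 of 15 complex IV genes. The ETS motif GGAAG was common in both, in 80.2% of the members' promoters and 70.1% of all promoters. A motif is a match of letters and not a measured site. Some genes called lower in W0 held no NRF1 motif, among them Ndufb5, Ndufb6, Ndufb10, Ndufb11 and Ndufs3. Ndufa5, Ndufa11 and Ndufa12 held the motif and were not called. A link between motif and change was not tested. Shown are the promoters of Ndufv3 at chr20:9613536-9613835 (plus strand), the member with the lowest change in W0, and of Sdha at chr1:30764303-30764602 (plus strand), the one complex II gene called lower. Both sequences are from RefSeq on GRCr8, and capitals mark the NRF1 motif.
Ndufv3: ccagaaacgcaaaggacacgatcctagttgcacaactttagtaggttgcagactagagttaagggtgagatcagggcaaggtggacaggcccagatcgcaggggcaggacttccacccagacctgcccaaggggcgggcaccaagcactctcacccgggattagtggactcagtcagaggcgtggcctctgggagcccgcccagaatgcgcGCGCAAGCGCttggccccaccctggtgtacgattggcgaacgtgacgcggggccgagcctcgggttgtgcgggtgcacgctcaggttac
Sdha: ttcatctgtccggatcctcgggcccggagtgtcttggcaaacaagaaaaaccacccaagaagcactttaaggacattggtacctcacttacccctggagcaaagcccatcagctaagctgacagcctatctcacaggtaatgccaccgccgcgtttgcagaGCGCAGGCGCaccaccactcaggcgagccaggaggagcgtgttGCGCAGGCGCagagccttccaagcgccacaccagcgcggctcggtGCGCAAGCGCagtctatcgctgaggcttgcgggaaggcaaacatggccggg
The motif begins 39 bases before the start of Ndufv3, and at 89, 46 and 1 bases before that of Sdha.

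At the peak of the disease the genes of the chain were lower as a group, and complex I and complex II had the lowest medians. Of the 100 genes, 88 had a lower mean in W0 than in CTL, with a median log2 change of -0.27, against a median of -0.01 over all genes, 51.1% of which were lower. A gene was called changed at a limma adjusted p under 0.05 over all genes. By this threshold 16 of the 100 genes fell in W0, where 4.41% of all genes did, and 0 rose, where 4.99% of all genes did. Among the 83 genes other than copies 14 fell. In 58 of the 100 genes every W0 kidney was below every CTL kidney, which held for 13.2% of all genes. An RNA level per whole kidney cannot tell fewer tubular cells from less RNA in each cell.

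**Figure D1:**
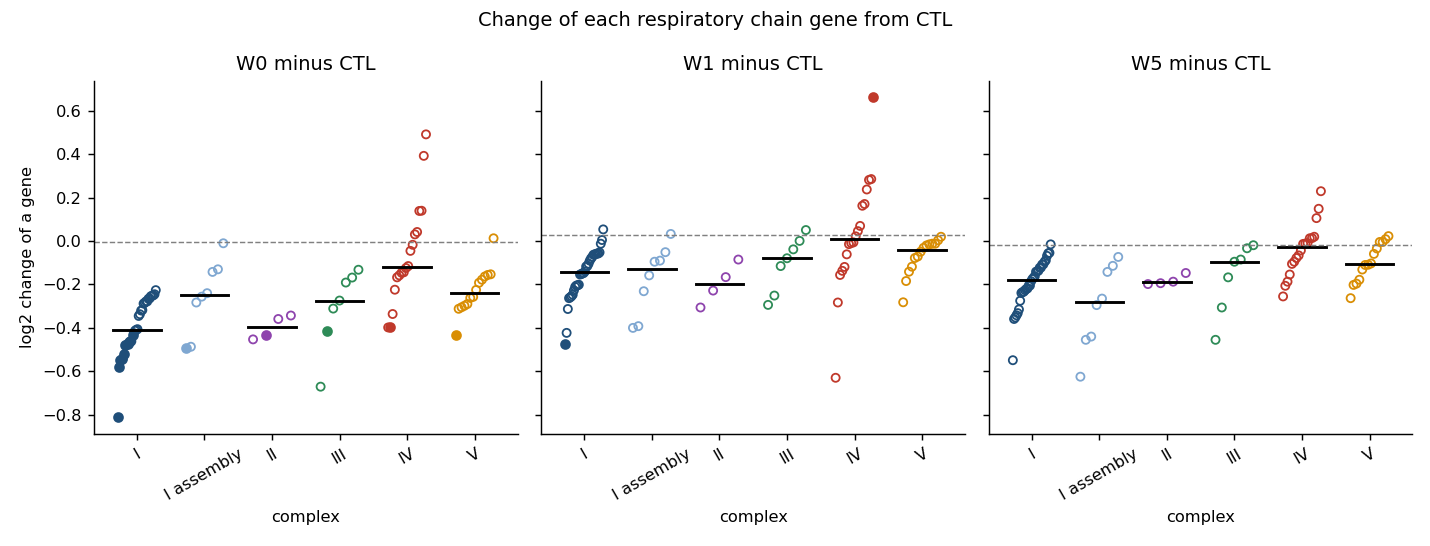
Log2 change from CTL of each of the 83 genes other than copies in W0, W1 and W5 (vertical axis), by complex (horizontal axis). Each circle is a gene, filled where limma called it, black bars are medians and the dashed line is the median of all genes. In W0 all 32 complex I subunits lie below 0, with a median of -0.41, whereas complex IV is spread from -0.40 to 0.49.

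The 16 calls depended on single kidneys, while the direction did not. Without CTL rat 3 only 1 of the 100 genes was called lower (Ndufv3), where 2.63% of all genes were, and 1 was called higher (Cox6a2). The number called lower was 2 without W0 rat 3 (2.87% of all genes), 4 without W0 rat 1 (3.63%, with Cox8b among the 4), 7 without CTL rat 2 (3.2%), 8 without CTL rat 1 (2.77%) and 10 without W5 rat 2 (3.73%). Without CTL rat 3 or W0 rat 3 the members were thus called no more often than all genes, and without W0 rat 1 about as often. With any single kidney left out the 83 genes other than copies kept a median between -0.34 and -0.23. From 74 to 77 of them were below 0, as were all 32 complex I subunits. This was largely set beforehand, since in 54 of the 83 and 31 of the 32 every W0 kidney was below every CTL kidney. Leaving out a W1 or W5 kidney does not alter these changes at all. Of the 16 calls 15 were lost without at least 2 of the 12 kidneys, and the highest adjusted p any of them reached was 0.146 (Ndufv2).

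**Figure D2:**
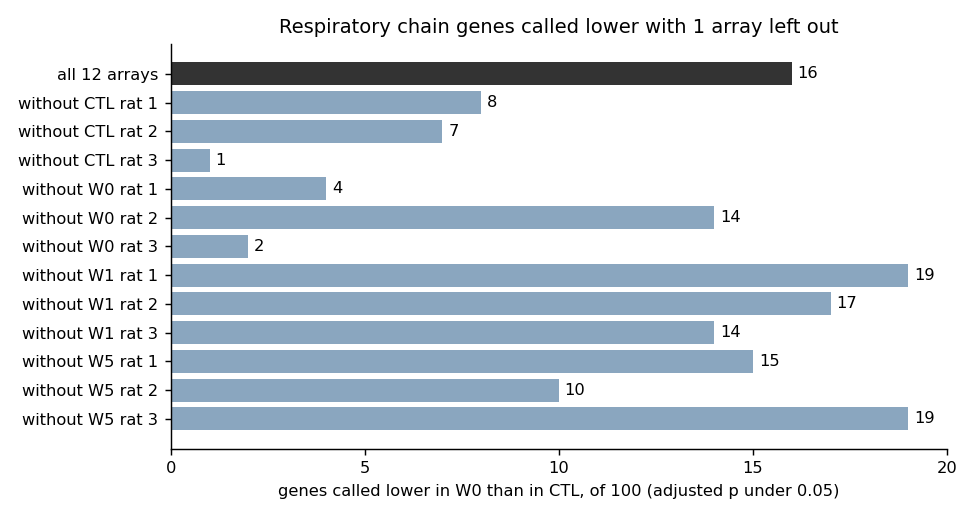
Number of the 100 respiratory chain genes called lower in W0 than in CTL (horizontal axis) with all 12 arrays and with each array left out in turn (vertical axis). The count is 16 with all arrays, 1 without CTL rat 3 and 2 without W0 rat 3.

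Seen by kidney, the median deviation of the 32 complex I subunits from their CTL mean was -0.50, -0.23 and -0.45 in W0 rats 1 to 3, against -0.08, -0.04 and 0.12 in the CTL rats. All W0 kidneys lay below all CTL kidneys, W0 rat 2 least so, and CTL rat 3 was the highest of the 12. For complex II the medians were -0.44, -0.28 and -0.44 in W0 and -0.06, -0.06 and 0.09 in CTL. Complex V had -0.33, -0.10 and -0.26 in W0 and -0.07, -0.01 and 0.08 in CTL. In complex IV the W0 values of -0.13, -0.02 and -0.16 overlapped the CTL values of -0.05, -0.03 and 0.08. The median of all genes stayed within -0.02 and 0.04 in these 6 arrays.

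**Figure D3:**
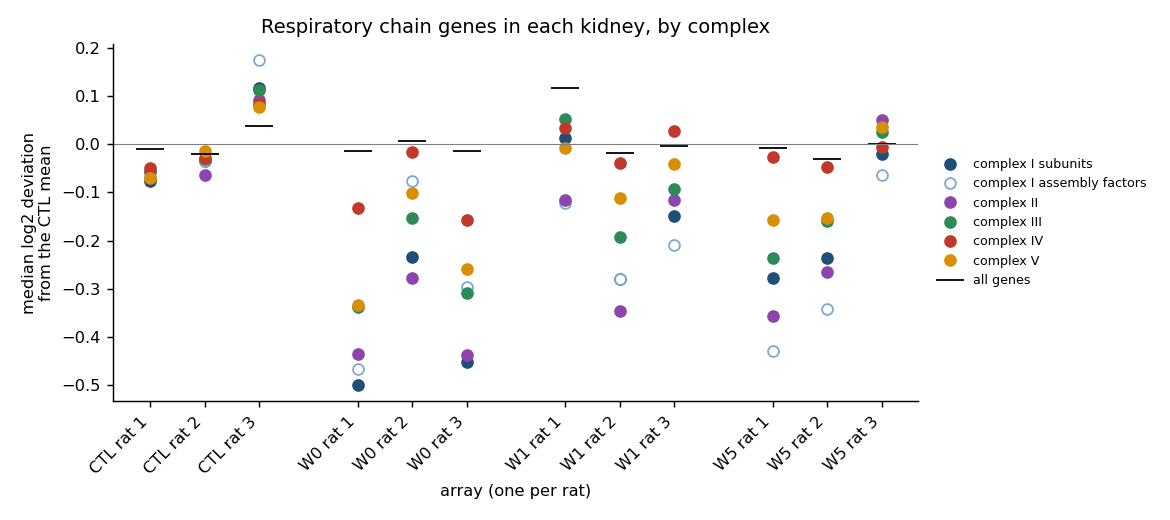
Median log2 deviation from the CTL mean (vertical axis) of the genes of each complex in each of the 12 kidneys (horizontal axis), with black dashes for all genes. Complex I subunits are at -0.50, -0.23 and -0.45 in W0 and at -0.28, -0.24 and -0.02 in W5, where rat 3 is close to CTL.

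Ndufv3, an accessory subunit of the NADH-binding module of complex I, had the lowest change of the chain. Its level was 9.76, 9.80 and 9.81 in W0, and 10.57, 10.60 and 10.64 in CTL. The W0 kidneys lay close together and below all CTL kidneys. It fell by 0.81 on the log2 scale in W0 (95% interval -1.04 to -0.59, adjusted p = 0.000315), or dropped by 43.1% in linear signal, and of the 16 calls it was the one that held whichever single kidney was left out (highest adjusted p = 0.00227). The second probeset of the gene was also lower, with 9.73, 9.84 and 9.77 in W0 against 10.15, 10.06 and 10.14 in CTL, but by 0.34 only. The probesets thus share the direction and differ in the size of the change, the cause of which was not tested.

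Of the other subunits of complex I 8 fell in W0. With Ndufv3 these are 9 of the 32 (28.1%, against 4.41% of all genes). Ndufs3, Ndufs7 and Ndufs8 belong to the module that reduces coenzyme Q, and Ndufs7 and Ndufs8 carry its iron-sulfur clusters. Ndufs3 was at 8.90, 9.17 and 8.93 in W0 and at 9.36, 9.56 and 9.71 in CTL (-0.55, adjusted p = 0.0354). Ndufs7 had 8.33, 8.59 and 8.55 in W0 and 8.97, 8.97 and 9.09 in CTL (-0.52, adjusted p = 0.0245), and Ndufs8 8.68, 8.87 and 8.79 in W0 and 9.22, 9.16 and 9.37 in CTL (-0.47, adjusted p = 0.0219). None of the 3 overlapped between groups. Of the 5 genes measured of this module all were lower in every W0 kidney (13.2% of all genes were), with a median of -0.47.

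The ND4 module of the distal membrane arm gave 4 of the 9 calls. Of its 5 genes measured 80% fell, against 4.41% of all genes. Its proteins, among them those of Ndufb5, Ndufb6, Ndufb10 and Ndufb11, sit around the proton-pumping subunit ND4. Ndufb10 was at 8.92, 8.98 and 8.89 in W0 and at 9.41, 9.46 and 9.55 in CTL (-0.54, adjusted p = 0.0151). Ndufb11 was at 9.45, 9.40 and 9.38 in W0 and at 9.79, 9.85 and 9.89 in CTL (-0.43, adjusted p = 0.0147). The groups of both genes lay well apart, and of the 12 kidneys only the absence of CTL rat 3 or W0 rat 3 ended these calls (highest adjusted p = 0.0598 and 0.0551). Ndufb6 (-0.58) and Ndufb5 (-0.46) also fell, and the 5 genes of this module had a median of -0.47.

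The NADH-binding module held 10 genes with a median of -0.34, of which Ndufv3 and Ndufv2 fell (20%, against 4.41% of all genes). Ndufv2, which carries an iron-sulfur cluster next to the site of NADH oxidation, was at 8.72, 8.82 and 8.66 in W0 and at 9.15, 9.03 and 9.46 in CTL (-0.48, adjusted p = 0.0352). Its CTL rat 3 lay well above the other CTL kidneys. The 6 genes of the proximal membrane arm (median -0.36) and the 6 around ND5 (median -0.30) gave no call. Still, 11 of these 12 were lower in every W0 kidney (13.2% of all genes were), with Ndufb3 the exception. The smallest change of the complex was that of Ndufa12 (-0.23).

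**Figure D4:**
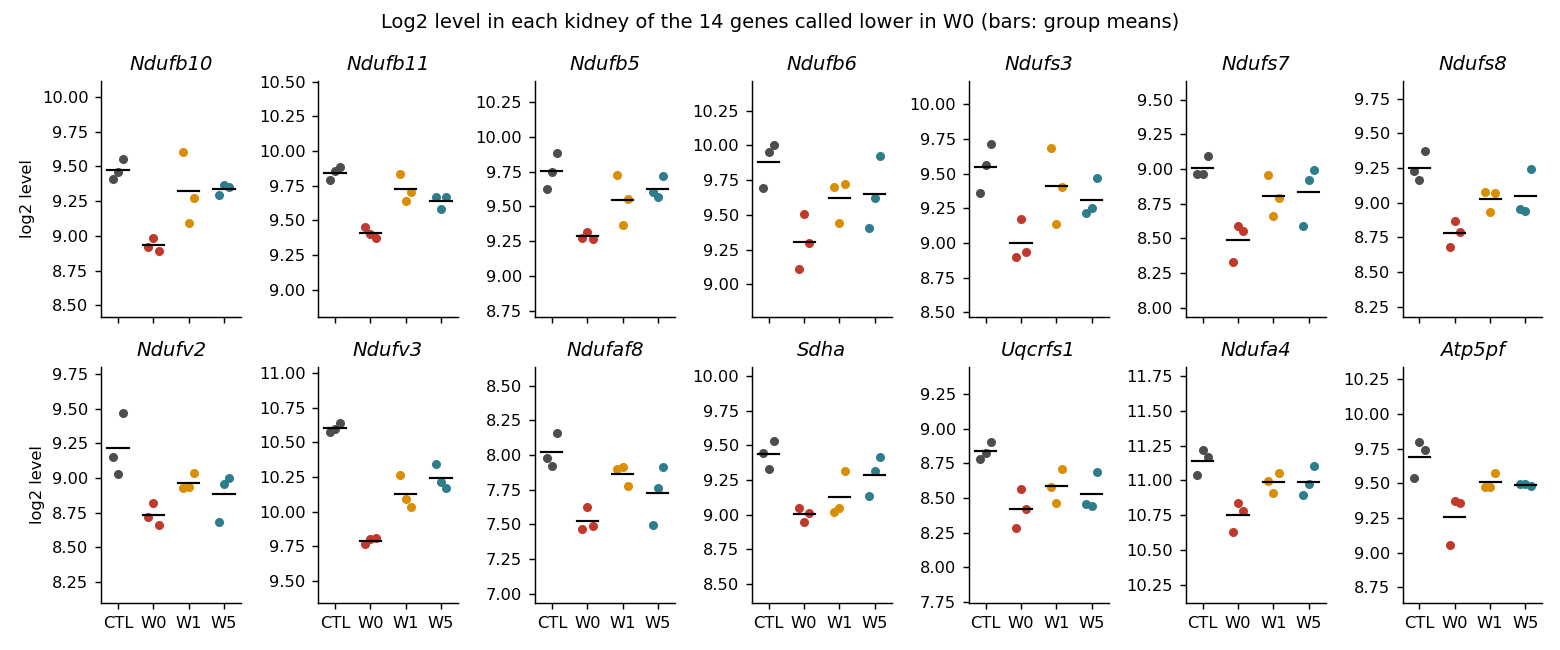
Log2 level (vertical axes) of the 14 genes other than copies called lower in W0, in each kidney of CTL, W0, W1 and W5 (horizontal axes), with bars for group means. The vertical span is the same in each panel. In Ndufv3 the W0 kidneys lie at 9.76 to 9.81, below those of the other 3 groups.

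The 8 assembly factors of complex I, which build the enzyme without remaining in it, had a median of -0.25. Only Ndufaf8 fell (12.5% of the 8, against 4.41% of all genes). It was at 7.47, 7.63 and 7.49 in W0 and at 7.98, 7.92 and 8.16 in CTL (-0.49, adjusted p = 0.0239). The change closest to 0 was that of Ndufaf7 (-0.01), a methyltransferase.

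All 4 genes of complex II were lower in every W0 kidney than in every CTL kidney, which held for 13.2% of all genes. Their changes were -0.34 to -0.45, and 1 of the 4 fell (25%, against 4.41% of all genes). Sdha, the flavoprotein that oxidizes succinate, was at 9.05, 8.95 and 9.01 in W0 and at 9.45, 9.33 and 9.53 in CTL, and fell by 0.43 (adjusted p = 0.0362). The iron-sulfur subunit Sdhb (-0.36, adjusted p = 0.092) and the membrane anchors Sdhc (-0.34, adjusted p = 0.17) and Sdhd (-0.45, adjusted p = 0.065) did not pass the threshold.

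In complex III the median was -0.27 over 7 genes, of which 1 fell (14.3%, against 4.41% of all genes). Uqcrfs1, the Rieske iron-sulfur protein, was at 8.29, 8.56 and 8.42 in W0 and at 8.78, 8.83 and 8.90 in CTL, and fell by 0.41 (adjusted p = 0.0436). Uqcrb, a small subunit close to the coenzyme Q site, was at 6.43, 6.33 and 6.17 in W0 and at 6.80, 7.21 and 6.94 in CTL. Its change was the largest of the complex (-0.67) and was not called (adjusted p = 0.0638). The core protein Uqcrc2 had -0.13. Counting over complexes I to III, 7 genes were listed for proteins that carry an iron-sulfur cluster. All 7 were lower in every W0 kidney (13.2% of all genes were), and 4 of them fell (4.41% of all genes did). So were 31 of the 32 complex I subunits and all 4 complex II genes lower in every W0 kidney. The median of the 7 (-0.413) was close to that of complex I subunits (-0.408) and complex II (-0.396). This separation was thus not particular to iron-sulfur proteins.

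Complex IV showed the smallest median change (-0.12), and its genes did not move as one. The 10 subunits used in most tissues had a median of -0.15. Ndufa4 was the one called (10% of the 10, where 4.41% of all genes fell). It was at 10.63, 10.84 and 10.78 in W0 and at 11.04, 11.22 and 11.17 in CTL (-0.39, adjusted p = 0.0375). Of the 10, 9 had a lower mean in W0. In 4 of them every W0 kidney was below every CTL kidney, which held for 13.2% of all genes. Beside Ndufa4 these were Cox5b (mean 10.215 in W0 and 10.44 in CTL), Cox6c (7.43 and 7.76) and Cox7c (10.30 and 10.42). For Cox7c the gap was minute, since W0 rat 2 and CTL rat 2 were both at 10.329 after rounding. Cox4i1 (-0.12), Cox5a (-0.16), Cox6a1 (-0.15), Cox8a (-0.14) and Cox6b1 (0.03) all overlapped between W0 and CTL. Cox7b had -0.40 with a wide spread among the W0 kidneys (9.77, 10.21 and 10.36, against 10.32, 10.62 and 10.61 in CTL).

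The paralogues that replace these subunits in muscle, lung, testis or hypoxia were measured at low levels, and their median change in W0 was 0.14 over 7 genes, none called. Cox6a2, the heart and muscle form, was at 6.04, 5.97 and 5.76 in W0 and 5.19, 5.40 and 5.71 in CTL (0.49, adjusted p = 0.056). Cox4i2, a form linked to low oxygen, was at 6.21, 6.32 and 6.62 in W0 and at 5.95, 6.01 and 6.00 in CTL (0.39, adjusted p = 0.14). In both genes every W0 kidney was above every CTL kidney, which held for 2409 of all 18166 genes. Cox8b gave no direction. W0 rat 1 was at 7.37 and W0 rats 2 and 3 at 4.42 and 3.82, on either side of the CTL kidneys at 5.18 to 5.49, and its change ran from -1.25 to 0.52 as single kidneys were left out. Ucp1, the uncoupling protein of brown fat, was likewise higher in W0 rat 1 (6.06) than in W0 rats 2 and 3 (3.95 and 3.85) and in the CTL rats (mean 3.96).

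**Figure D5:**
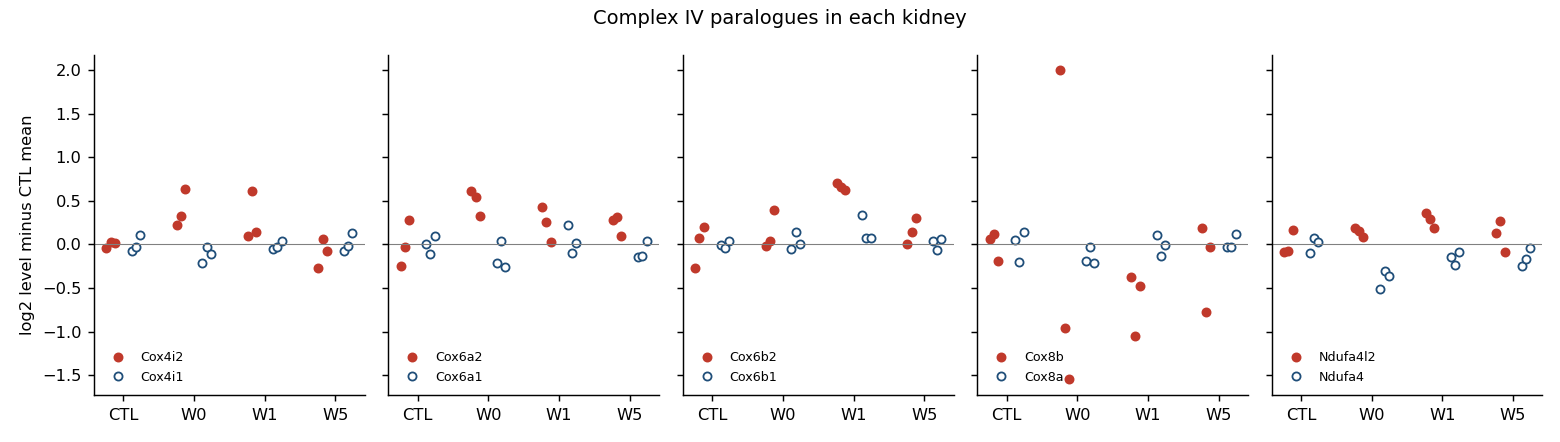
Log2 level minus the CTL mean (vertical axis) in each kidney of CTL, W0, W1 and W5 (horizontal axis) for 5 pairs of complex IV genes, the low-level paralogue in red and the usual subunit in open blue. Cox6b2 stands above CTL in all 3 W1 kidneys, and Cox8b is scattered in W0.

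In complex V 13 of 14 genes had a lower mean in W0, with a median of -0.24, and 1 fell (7.14%, against 4.41% of all genes). The peripheral stalk, which holds the catalytic head still, had the lowest median of its parts (-0.30 over 4 genes). Its subunit Atp5pf was at 9.05, 9.37 and 9.36 in W0 and at 9.54, 9.80 and 9.74 in CTL, and fell by 0.43 (adjusted p = 0.0339). The head genes Atp5f1a, Atp5f1b and Atp5f1d had -0.15 to -0.18, and the c-ring genes Atp5mc1 and Atp5mc3 had -0.22 and -0.16. The inhibitor of the enzyme, Atp5if1, was at 10.15, 10.28 and 10.14 in W0 and at 10.03, 10.24 and 10.26 in CTL, a change of 0.01.

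The complexes sit at different heights of the scale, with a median CTL level of 9.68 for complex I and 10.66 for complex V. Over genes with a CTL level of at least 10, the median change in W0 was -0.28 in complex I (12 genes), -0.35 in complex II (2), -0.24 in complex V (10), -0.23 in complex III (4) and -0.15 in complex IV (9). Complex I genes under 10 had -0.46 (20 genes). Among genes of high signal complexes I and V were thus close to each other. No difference between complexes was tested.

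Of the 17 copies and pseudogenes 12 had a lower mean in W0. Among the 17, Ndufa13-ps1 (-0.42) and Uqcr10-ps1 (-0.49) fell (11.8%, against 4.41% of all genes). Their probesets may also bind the RNA of the parent genes, so these values are uncertain.

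At 1 week after withdrawal (W1) most of the genes were closer to CTL. Of the 100 genes 75 had a lower mean than in CTL, as did 44.7% of all genes, whose median change was 0.03. Ndufv3 was the 1 gene that fell (0.787% of all genes did), and Cox6b2 the 1 gene that rose (2.23% of all genes). Ndufv3 was at 10.26, 10.09 and 10.04 in W1, below all CTL kidneys and above all W0 kidneys (-0.47 from CTL, adjusted p = 0.0268). Its second probeset had -0.12. Cox6b2, the testis form of a complex IV subunit, was at 6.00, 5.95 and 5.91 in W1 and 5.01, 5.36 and 5.49 in CTL (0.66, adjusted p = 0.0269). Its W0 kidneys, at 5.27, 5.33 and 5.68, and its W5 kidneys, at 5.29, 5.43 and 5.59, overlapped CTL. The call of Ndufv3 was lost without any of the CTL rats, W1 rat 2 or W1 rat 3 (adjusted p up to 0.102), and that of Cox6b2 without CTL rat 1, CTL rat 2 or any of the W1 rats (up to 0.12). Median changes from CTL were -0.14 in complex I, -0.20 in complex II, -0.08 in complex III, 0.01 in complex IV and -0.04 in complex V. W1 rat 1 had complex I at 0.01 and the other W1 kidneys at -0.28 and -0.15, while the median of all genes was 0.12 in W1 rat 1.

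At 5 weeks after withdrawal (W5) no gene of the chain was called against CTL by limma, and none of all 18166 genes was (0%), although 12 of the 83 genes other than copies (14.5%) had an unadjusted p under 0.05, as did 7.34% of all genes. All 32 complex I subunits still had a mean below CTL (median -0.18), as did 53.9% of all genes (median -0.02). Their median deviation was -0.28, -0.24 and -0.02 in the 3 W5 rats, so that rat 3 lay within the CTL range. In 5 of the 32 every W5 kidney was below every CTL kidney, against 7.44% of all genes. Complex II had a median of -0.19, complex III -0.095, complex IV -0.03 and complex V -0.11, and the assembly factors -0.28. All 4 genes of complex II and all 7 of complex III had a mean below CTL.

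Directly against W0, no member was called in W1 (0.528% of all genes were, in either direction). A higher mean in W1 was seen in 31 of the 32 complex I subunits, with a median of 0.25. It was also seen in 10781 of all 18166 genes, with a median of 0.04. In W5 Ndufv3 rose against W0 by 0.45 (adjusted p = 0.0229, with 1.88% of all genes called higher), its W5 kidneys at 10.35, 10.21 and 10.17. This call was lost without any of the W0 rats, W5 rat 1 or W5 rat 2 (adjusted p up to 0.0883). No member was called between W5 and W1 (0.286% of all genes). At an unadjusted p under 0.05 there were 17 of the 83 genes other than copies (20.5%) for W1 against W0, where 11.2% of all genes were, and 3 (3.61%) for W5 against W1, where 11.4% of all genes were. None of the alternative fits called a member in W5 against CTL, W1 against W0 or W5 against W1. The comparisons with CTL and with W0 share kidneys and are not independent of one another.

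Genes that work with the chain were read from lists. Among 13 genes of electron carriers and coenzyme Q synthesis, 12 had a lower mean in W0, as did 51.1% of all genes. Of the 13, 1 fell and 1 rose, 7.69% in each direction, against 4.41% and 4.99% of all genes. Cycs, which encodes cytochrome c, fell by 0.66 (adjusted p = 0.0054), with 9.83, 9.59 and 9.45 in W0 and 10.12, 10.46 and 10.26 in CTL, and the call held whichever kidney was left out. Coq8b, a kinase-like protein of coenzyme Q synthesis, rose by 0.43 (adjusted p = 0.0367). Of 40 assembly factors outside the symbol rule 38 had a lower mean (median -0.26). Of these 40, 5 fell (12.5%, against 4.41% of all genes) and 0 rose (4.99% of all genes). They include Sdhaf3 of complex II (-0.67), Coa8 of complex IV (-0.66) and Tmem70 of complex V (-0.52). Leaving out single kidneys did not end the call of Coa8, but that of Tmem70 was lost without W0 rat 3 (adjusted p = 0.0601), that of Sdhaf3 without CTL rats 2 or 3 or W0 rats 2 or 3 (up to 0.124), and that of Coq8b without CTL rats 2 or 3, W0 rats 1 or 3 or W5 rat 2 (up to 0.121).

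The 3 complex IV genes of mitochondrial DNA that could be read, COX1, COX2 and COX3, had changes of -0.08, -0.09 and -0.04 in W0, none called. COX3 was at 12.85, 12.71 and 12.78 in W0 and at 12.81, 12.88 and 12.76 in CTL. These are among the highest values on the arrays, the maximum being 12.88, and whether the signal still follows the amount of RNA there was not tested.

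Of 19 regulators of mitochondrial biogenesis 1 fell and 1 rose in W0, 5.26% in each direction, which is close to the shares of all genes. Esrrg, an orphan nuclear receptor that drives oxidative genes, was at 8.24, 8.12 and 8.38 in W0 and at 8.70, 8.88 and 8.76 in CTL (-0.53, adjusted p = 0.015). Pprc1, a coactivator related to PGC-1, rose by 0.76 (adjusted p = 0.00744). Ppargc1a, which encodes PGC-1alpha, had -0.34 and Nrf1 0.31, neither called. In W1 Ppara fell by 0.68 (adjusted p = 0.0486), as the 1 of the 19 that did (5.26%, against 0.787% of all genes). Among 9 carriers and uncoupling proteins of the inner membrane, Ucp2 rose by 1.49 and Slc25a30 fell by 1.29 in W0. Each is 11.1% of the list, where 4.99% of all genes rose and 4.41% fell. Both were also called in W1 (1.12 and -0.80). Of 22 other mitochondrial proteins only Cpt2, of fatty acid import, was called (0.41), and their median was -0.11. That is 4.5% of the 22, where 4.99% of all genes rose. The calls of Pprc1, Ucp2 and, in W0, Slc25a30 held whichever kidney was left out. That of Esrrg was lost without CTL rat 2 or W0 rat 2 (adjusted p up to 0.0645), that of Slc25a30 in W1 without CTL rat 2 or W1 rat 2 (up to 0.0635), that of Cpt2 without any of 8 kidneys (up to 0.127) and that of Ppara without any of 9 (up to 0.178).

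Most markers of the cells that hold most of the mitochondria moved in the same direction. A lower mean in W0 was seen in 9 of 10 proximal tubule and 8 of 10 thick ascending limb and distal tubule markers. The proximal marker Cubn (0.22) was higher in every W0 kidney than in every CTL kidney. Of the distal markers Pvalb had 0.10, and Slc12a3 had means of 10.203 in W0 and 10.202 in CTL. In W0 6 of the 10 proximal and 4 of the 10 distal markers fell (4.41% of all genes did), with medians of -0.69 and -0.50. The summed linear signal of the proximal markers was 11011 to 13587 in W0 and 17879 to 20191 in CTL, with 14827 to 18092 in W1 and 15997 to 19187 in W5. That of the distal markers was 6435 to 7696 in W0 and 10215 to 10810 in CTL. In W1 it was 7805 to 9778 and in W5 10475 to 11821. Macrophage markers rose in 7 of 10 genes (median 1.05) and fibroblast and matrix markers in 8 of 9 (median 0.80). Of all genes 4.99% rose. None of the 5 T and B cell markers was called. The summed macrophage signal was 1870 to 3641 in W0 and 1214 to 1429 in CTL, and the fibroblast signal 3047 to 3703 in W0 and 1540 to 1614 in CTL. In W1 these last signals were still high, at 2417 to 3312 for macrophages and 3338 to 4062 for fibroblasts. There 9 of 10 macrophage markers (median 1.06) and 6 of 9 fibroblast markers (median 1.29) rose, against 2.23% of all genes. The W5 signals were 1406 to 1644 and 2193 to 2414. The part of these shifts in the lower respiratory chain signal was not tested.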

How the data were processed

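Per the labels, total RNA of each kidney was amplified and hybridized on an array of its own. The authors normalized the fluorescence by RMA, and the values they deposited (20944 probesets, 12 arrays) are on a log2 scale and were not changed. The RMA software and any batches are not given in the sources used here, and the number of arrays limits the precision. Probesets with a single gene symbol (18510) were kept, and the one with the highest mean over the arrays stood for its gene. Tests were made in limma 3.58.1 (R 4.3.3), where 1 model held all 4 groups and no trend was fitted to the moderated variances (median standard error 0.145, degrees of freedom 13.84) and Benjamini-Hochberg adjustment over 18166 genes. The threshold was 0.05. The code was tested on simulated data. The members and lists were chosen with earlier results of these data known. Named were, per complex, called members, the highest and lowest change in W0, the Sdh genes and paralogue sets, and up to 3 called genes per list. Values of further members and genes were named after they were seen, to show the groups' members. Alternatives were another scaling, filter or probeset, limma with trend, the 2 groups alone, a t-test and left-out arrays. Python 3.11.15 was used for counts and figures.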

Additional observations from a re-analysis of the deposited data

Results flagged for a closer look

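Ndufv3 in W5 against W0 was singled out because its change from CTL differed between these stages by the test of the difference itself, by 0.45 on the log2 scale (limma adjusted p = 0.0229). It was higher in 3 of 3 W5 kidneys than in every W0 kidney, and the second probeset of the gene differed by 0.16. No single value was tested as an outlier within a group, since groups hold 3 kidneys. Over all genes W0 rat 1 and W1 rat 1 stood apart on the second principal component (31.7 and -20.4).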

How the results depend on the processing

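The direction in W0 held widely and the number of calls did not. For W0 against CTL the 16 calls became 28 with the arrays centred on their medians (5.57% of all genes were then lower). They became 26 of 80 with only genes above the median level (9.65%) and 9 with only the 2 groups in the fit (3.19%). Without W0 rat 1 and W1 rat 1, which stand apart on the second principal component, there were 7 (4.06%). The methods' t-test gave 1 after adjustment (0.0826%), and leaving out single kidneys gave 2 to 20. For W1 against CTL the 2 calls became 1 with the mean of probesets, the level filter, the 2 groups alone or those 2 arrays left out, 0 with the methods' t-test and 0 to 2 with single kidneys left out. For W5 against W0 the 1 call became 3 with centring, 2 with repeated quantile normalization, the level filter or the 2 arrays left out, 0 with the mean of probesets, the 2 groups alone or the methods' t-test, and 0 to 2 with single kidneys left out. The counts of 0 to 3 members in these last 2 comparisons are too small to read against the shares of all genes. The complex I median of -0.41 was -0.28 over genes with a CTL level of at least 10, a choice made after the data were seen. It was -0.46 to -0.32 with single kidneys left out. Small changes turned sign. Cox6b1 (0.03) became 0.00 with centring, -0.11 with the mean of probesets and -0.023 to 0.074 with kidneys left out. Atp5if1 (0.01) became -0.018 with centring and -0.063 to 0.055 with kidneys left out. Cox7a2l (-0.04) became 0.007 and Ndufaf7 (-0.01) 0.22 without the 2 arrays, with ranges of -0.10 to 0.039 and -0.17 to 0.22 over left-out kidneys. Cox8b (-0.17) ran from -1.25 to 0.52, and COX3 (-0.04) became 0.00 with repeated quantile normalization. In W0 against CTL the medians of the complexes kept their sign under all of these.

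With the replicate number as a block (replicate block) 18 members were called in W0 against CTL, all lower, where 4.88% of all genes were. Same-numbered kidneys correlated between -0.04 and 0.17 in their deviations from the group means, with 7 of 18 such pairs above 0.1, against 2 of 36 pairs of different number. Of the 7, 5 were among the 6 pairs of kidneys numbered 1. Since 11 pairs were not above 0.1 and the labels give the numbers no meaning, the block was not used in the tests, and a shared factor, most of all among the kidneys numbered 1, was not tested.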
